A study of Mus musculus with 9 samples.

Results

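Claudins, cadherins and their tight junction partners were followed in mouse kidney after ligation of the common bile duct, which blocks the outflow of bile from the liver. The set holds every gene measured by a row of the array with a single gene symbol whose name is that of a claudin (Cldn), a numbered cadherin (Cdh, without the endothelial Cdh5), a zonula occludens protein (Tjp), occludin (Ocln) or Epcam. It came to 49 of 22180 genes, namely 23 claudins, 22 cadherins and Ocln, Tjp1, Tjp3 and Epcam.

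Total RNA from whole kidney was measured on 9 whole-transcript arrays, in 3 groups of 3. One group received norUDCA (norursodeoxycholic acid, the side-chain-shortened homologue of the bile acid UDCA) in its feed for 5 days and then underwent 3 weeks of bile duct ligation. It is called norUDCA-fed CBDL (arrays norUDCA_172, norUDCA_175 and norUDCA_179). The next had the same 3 weeks of ligation with no norUDCA named in its labels and is called CBDL (arrays CBDL_164, CBDL_165 and CBDL_170). The third had a sham operation 3 weeks earlier (arrays sham_158, sham_159 and sham_160). The labels give no strain, sex, age or batch, do not say whether norUDCA was given after the operation, and do not name the source of the replicates. The p-values therefore measure only the spread between these samples. Values of a group are listed in the order of the array numbers above, and all are log2 signals, so that a difference of 1 is a 2-fold change.

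Tight junctions are belts of claudins, occludin and scaffold proteins that seal the space between neighbouring epithelial cells and decide which ions and how much water pass between them. Each stretch of the nephron uses its own claudins, with leaky, pore-forming ones in the proximal tubule and mostly sealing ones in the collecting duct. Cadherins hold the cells together just below, at the adherens junction, where their tails bind catenins and the actin skeleton.

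"Rose", "fell" and "called" are used of genes with an adjusted p under 0.05 (Benjamini-Hochberg, over all 22180 genes) in limma, a linear model that shares information on spread across genes (two-sided). With 3 arrays against 3 an exact permutation test cannot go below a p of 0.1. The median signal of an array lay between 5.70 and 5.79, and group differences had a median standard error of 0.14. On the second principal component, which held 13% of the variance over all genes, the outlying arrays were sham_159 (-34.5) and CBDL_165 (-22.9), with the remaining 7 at 3.4 to 12. On norUDCA_172 the Y-linked transcript Uty read 7.66, against 9.15 to 9.44 on the other 8 arrays. The kidney label was borne out by Umod of the thick ascending limb, at 12.47 to 12.87 on the 9 arrays, and by Lrp2 of the proximal tubule, at 11.12 to 12.83. Of the 49 genes, 18 were among the dimmest 33.3% of all genes, with a mean signal under 5.20, where signal above background is not shown.

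The genes that the results turn on include neighbours in the genome. Cldn4 and Cldn3 lie next to each other on chromosome 5, with Cldn13 close by, while Cdh3 and Cdh1 are adjacent on chromosome 8, Cldn6 and Cldn9 on chromosome 17, and Cldn1 and Cldn16 on chromosome 16, in the RefSeq annotation of GRCm38.p6. Promoter windows from RefSeq, 250 bases before to 50 after a transcription start on that build, were found for 36 of the 49 genes. The windows below belong to the 4 claudins that were lower in norUDCA-fed CBDL than in CBDL kidneys and to Cldn2, which fell after ligation. They are shown as the stretches in which the motifs counted below were looked for. Capitals mark CACCTG (the E-box bound by SNAI and ZEB repressors), GGGCGG (the GC box of SP and KLF factors), CGGAAG (bound by ETS factors such as Elf3 and Ehf) or TATAAA (the TATA box), each on either strand.
Cldn4 (chr5:134946885-134947184, minus strand): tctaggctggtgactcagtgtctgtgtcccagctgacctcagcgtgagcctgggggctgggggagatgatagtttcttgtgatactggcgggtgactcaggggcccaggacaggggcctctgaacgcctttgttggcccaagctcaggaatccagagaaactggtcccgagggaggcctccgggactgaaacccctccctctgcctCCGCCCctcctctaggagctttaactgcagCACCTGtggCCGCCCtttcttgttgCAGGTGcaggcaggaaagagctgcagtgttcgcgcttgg
Cldn3 (chr5:134985964-134986263, plus strand): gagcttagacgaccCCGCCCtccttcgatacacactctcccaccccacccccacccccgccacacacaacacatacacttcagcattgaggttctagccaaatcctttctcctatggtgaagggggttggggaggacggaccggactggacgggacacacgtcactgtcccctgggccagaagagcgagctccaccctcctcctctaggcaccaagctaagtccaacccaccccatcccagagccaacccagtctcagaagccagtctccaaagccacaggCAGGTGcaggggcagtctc
Cldn6 (chr17:23679115-23679414, plus strand): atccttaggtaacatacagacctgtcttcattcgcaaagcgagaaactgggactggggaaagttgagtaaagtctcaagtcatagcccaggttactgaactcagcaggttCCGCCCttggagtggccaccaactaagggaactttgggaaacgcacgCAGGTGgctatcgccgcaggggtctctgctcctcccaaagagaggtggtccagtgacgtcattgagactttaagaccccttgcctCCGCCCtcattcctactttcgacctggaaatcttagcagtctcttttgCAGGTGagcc
Cldn1 (chr16:26371790-26372089, minus strand): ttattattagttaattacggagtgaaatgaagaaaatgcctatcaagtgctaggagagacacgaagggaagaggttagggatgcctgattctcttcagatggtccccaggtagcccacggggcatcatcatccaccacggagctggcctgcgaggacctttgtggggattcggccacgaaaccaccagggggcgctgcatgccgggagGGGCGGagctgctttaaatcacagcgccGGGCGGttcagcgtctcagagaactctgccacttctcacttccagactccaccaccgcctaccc
Cldn2 (chrX:139800558-139800857, plus strand): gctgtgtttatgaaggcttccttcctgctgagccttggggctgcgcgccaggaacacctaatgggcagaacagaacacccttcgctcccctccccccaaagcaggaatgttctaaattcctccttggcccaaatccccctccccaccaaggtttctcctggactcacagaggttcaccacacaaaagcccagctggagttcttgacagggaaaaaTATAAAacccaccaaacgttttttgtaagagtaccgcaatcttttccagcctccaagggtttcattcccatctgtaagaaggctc
The E-box letters CACCTG stood in 1 place in the Cldn3 window and in 2 places each in the Cldn4 and Cldn6 windows, and in none of the Cldn1 and Cldn2 windows. Among the 9 genes that rose after ligation and had a window, 5 held them (Cldn3, Cldn4, Cldn6, Cldn7 and Epcam), in 5 of their 11 windows. Of the 48 windows of the set 27.1% held them, and of all 32851 windows of 300 bases 20.2%. GGGCGG stood in 10 of those 11 windows, in 45.8% of the 48 windows of the set and in 35.7% of all windows. The windows given for Cldn19 overlap and share their GGGCGG places, so the 11 windows are not independent. AACNNGTT, a form of the site of grainyhead-like factors, stood in none of the 11 and in 4.2% of all, and CGGAAG in 3 of the 11 and 16.9% of all. The TATAAA of the Cldn2 window was the only one in the 48 windows of the set, against 13.6% of all windows. No 2 of these motifs share a letter in the windows shown. A match is a run of letters and not a measured binding site.

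The comparison of CBDL with sham kidneys asks what ligation did to these transcripts. Of the 49 genes, 14 rose and 2 fell, so that 28.6% rose and 4.08% fell, beside a background over all genes of 10.3% that rose and 11.5% that fell (21.8% called in either direction). The genes that rose were Cldn4, Cldn3, Cldn7, Cldn1, Cldn6, Cldn19 and Cldn8 among the claudins, Cdh11, Cdh3, Cdh6, Cdh17 and Cdh1 among the cadherins, and Epcam and Tjp1. Cldn10, of the proximal tubule and thick ascending limb, and Cldn2, of the proximal tubule, fell, and both are pore-forming claudins. The median difference over the 49 genes was 0.00, beside -0.06 over all genes, since 33 of them were not called, 17 of these among the dimmest 33.3%. Of the 31 brighter genes, 13 rose and 2 fell, beside 14.7% that rose and 15.9% that fell among all genes above the same level. CBDL and sham ranges were separate for 14 genes upward and 4 downward, beside 15.6% and 20% of all genes (35.6% in either direction).

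**Figure D1:**
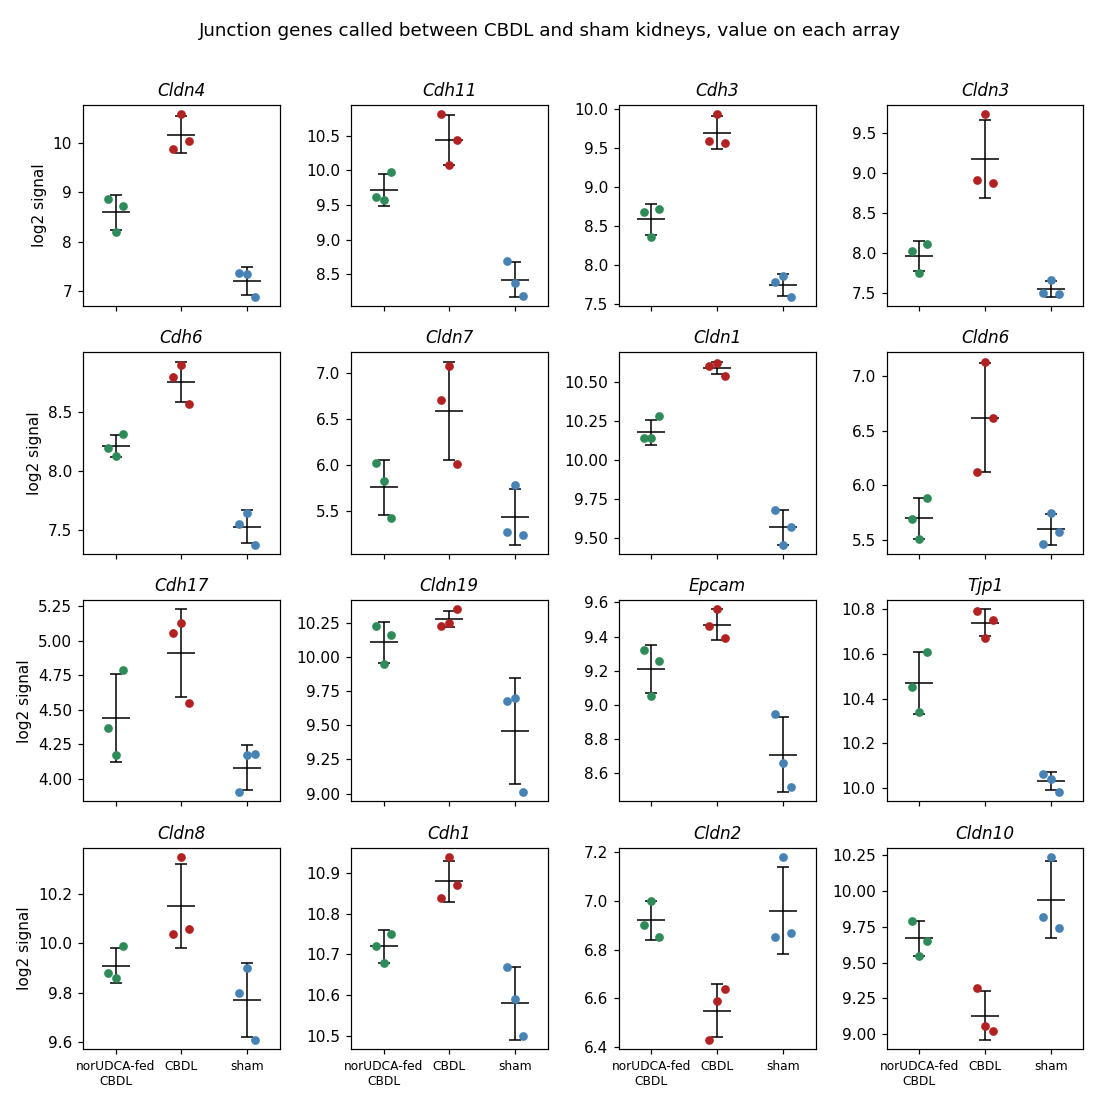
Log2 signal on each array (points) with the group mean and SD (bar and whiskers, n = 3) for the 16 genes called between CBDL and sham kidneys, in panels that run from the largest rise to the largest fall, each with a vertical scale of its own. Groups run from norUDCA-fed CBDL through CBDL to sham, and in each panel the CBDL points do not overlap the sham points.

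Cldn4, a sealing claudin of the collecting duct that also forms part of its chloride pathway, changed most. It read 9.87, 10.58 and 10.03 on the CBDL arrays, against 7.37, 7.35 and 6.88 on the sham arrays. The groups lay far apart, and the means differed by 2.96 (SE 0.23, adjusted p = 4.27e-05), a 7.78-fold increase. Its neighbour Cldn3, a sealing claudin of the distal nephron, read 8.91, 9.74 and 8.88 in CBDL, against 7.50, 7.66 and 7.49 in sham kidneys. CBDL_165 stood highest for both neighbours, and Cldn3 rose by 1.63 (SE 0.21, adjusted p = 0.000536), or 3.09-fold. Cldn13, which lies beside them, read 5.28, 5.11 and 5.36 in CBDL and 5.61, 5.72 and 5.36 in sham kidneys and was not called (adjusted p = 0.089).

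Cldn7, another claudin of the distal nephron and collecting duct, read 6.70, 7.07 and 6.01 in CBDL, against 5.28, 5.79 and 5.25 in sham kidneys. It rose by 1.15 (SE 0.27, adjusted p = 0.0116), with CBDL_170 close to the highest sham array. Cldn8, the partner of Cldn4 in the collecting duct, read 10.04, 10.35 and 10.06 in CBDL, against 9.80, 9.90 and 9.61 in sham kidneys. Its rise of 0.38 (SE 0.12, adjusted p = 0.0463) was small, and the call ended when any 1 of 8 arrays was left out, all but sham_159 (adjusted p between 0.0577 and 0.143). Of 13 collecting duct markers, 1 rose (Scnn1a, at 0.55), 3 fell and 9 were not called (10.3% rose and 11.5% fell over all genes). The markers had a median of -0.31. Their mean signal lay between 8.20 and 8.97 on CBDL arrays and between 9.05 and 9.26 on sham arrays, and their part in the results on these claudins was not tested.

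Cldn1, known from the parietal cells that line the glomerular capsule, read 10.60, 10.62 and 10.54 in CBDL, against 9.68, 9.46 and 9.57 in sham kidneys. The 3 CBDL values lay close together and all above the sham values, and the increase of 1.02 (SE 0.10, adjusted p = 0.000103) was 2.02-fold. Its genomic neighbour Cldn16 differed by -0.07 (95% interval -0.42 to 0.28). Of 10 markers of parietal epithelium and injured tubule, 8 rose and 0 fell (median 1.85), beside 10.3% and 11.5% of all genes. These markers had a mean signal of 9.27 to 9.59 on CBDL arrays, against 7.42 to 7.61 on sham arrays. Their part in the rise of Cldn1 was not tested. Cldn6, a claudin mainly of embryonic epithelia, read 6.12, 7.13 and 6.62 in CBDL, against 5.47, 5.75 and 5.58 in sham kidneys. It rose by 1.02 (SE 0.22, adjusted p = 0.00841), whereas the adjacent Cldn9 differed by -0.07 (adjusted p = 0.864) at signals of 5.42 and below.

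Among the claudins of the thick ascending limb, the segment that reclaims calcium and magnesium between its cells, Cldn19 rose and Cldn16 and Cldn14 were not called. Cldn10, an isoform of which also acts there, fell and is given below. Cldn19 read 10.23, 10.25 and 10.35 in CBDL, against 9.68, 9.70 and 9.01 in sham kidneys, a rise of 0.81 (SE 0.18, adjusted p = 0.00815). Array sham_160 was the lowest. A second, dimmer row for Cldn19 averaged 7.00 in CBDL and 6.99 in sham kidneys, so the rows disagree, and with the mean of both rows the difference was 0.41 (adjusted p = 0.0471). Cldn16, which forms the cation pathway of that segment with Cldn19, averaged 8.14 ± 0.23 in CBDL and 8.21 ± 0.27 in sham kidneys (SD, n = 3 each). Cldn14, which blocks that pathway, averaged 4.95 ± 0.14 in CBDL and 4.99 ± 0.12 in sham kidneys (SD, n = 3 each), in the dimmest 33.3%. Of 9 thick limb and distal convoluted tubule markers, 0 rose and 3 fell (10.3% rose and 11.5% fell over all genes).

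Cldn10 and Cldn2 went the other way. Cldn10, whose isoforms let anions through in the proximal tubule and sodium in the thick ascending limb, read 9.32, 9.06 and 9.02 in CBDL, against 9.82, 10.24 and 9.74 in sham kidneys. It fell by 0.80 (SE 0.15, adjusted p = 0.00361), which leaves 0.573 of the sham signal, and the single row does not separate the isoforms. Cldn2, the cation and water pore of the proximal tubule, read 6.43, 6.59 and 6.64 in CBDL, against 6.85, 7.18 and 6.87 in sham kidneys. The groups did not overlap, and the fall of 0.41 (SE 0.12, adjusted p = 0.0306) lost its call without sham_159, CBDL_164, CBDL_165 or norUDCA_172 (adjusted p between 0.0503 and 0.104). Each of the 12 proximal tubule markers fell, beside 11.5% of all genes. The markers had a median of -1.37 and a mean signal between 9.98 and 11.04 on CBDL arrays, against 11.99 and 12.05 on sham arrays. In whole kidney, fewer cells of a type and less RNA per cell cannot be told apart, and the part of the proximal tubule markers in the fall of these claudins was not tested.

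The cadherins with the largest increases were Cdh11, Cdh3 and Cdh6. Cdh11, a cadherin of fibroblasts and other mesenchymal cells, read 10.81, 10.08 and 10.43 in CBDL, against 8.69, 8.38 and 8.19 in sham kidneys. It rose by 2.02 (SE 0.20, adjusted p = 0.000121), or 4.06-fold, with no overlap between the groups. Each of 10 fibroblast and pericyte markers rose too (median 1.34), beside 10.3% of all genes. The markers had a mean signal of 9.54 to 9.80 on CBDL arrays, against 7.70 to 8.22 on sham arrays. Their part in the rise of Cdh11 was not tested.

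Cdh3 (P-cadherin), best known from placenta and basal epithelial layers, read 9.59, 9.94 and 9.57 in CBDL, against 7.78, 7.86 and 7.59 in sham kidneys. Its increase of 1.96 (SE 0.14, adjusted p = 3.57e-05) was 3.89-fold and had the lowest p of the set. Cdh6 (K-cadherin), the cadherin of the developing proximal tubule, read 8.79, 8.89 and 8.56 in CBDL, against 7.55, 7.65 and 7.38 in sham kidneys, a rise of 1.22 (SE 0.12, adjusted p = 0.000113). For both genes every CBDL array lay above every sham array. Cdh17, the cadherin of liver and intestine, read 5.06, 5.13 and 4.55 in CBDL and 3.90, 4.17 and 4.18 in sham kidneys. It was called (0.83, SE 0.19, adjusted p = 0.0125), but it lies in the dimmest 33.3% of genes, where signal above background is not shown, and the call ended without CBDL_164 (adjusted p = 0.0514) and without sham_159 and CBDL_165 together (0.0791).

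Cdh1, Cdh2 and Cdh16, the cadherins of the mature tubule, differed less or were not called. Cdh1 (E-cadherin), which joins distal tubule and collecting duct cells, read 10.84, 10.94 and 10.87 in CBDL, against 10.67, 10.59 and 10.50 in sham kidneys. The difference of 0.30 (SE 0.09, adjusted p = 0.0396) was a 1.23-fold increase, next to the 3.89-fold increase of its neighbour Cdh3, and the call ended without any 1 of the 9 arrays (adjusted p between 0.0506 and 0.118). With arrays centred on their median it was 0.19. Cdh2 (N-cadherin), the main classical cadherin of the proximal tubule, averaged 7.73 ± 0.22 in CBDL and 7.74 ± 0.23 in sham kidneys (SD, n = 3 each), with a 95% interval of -0.35 to 0.31 around a difference of -0.02. Cdh16, the kidney-specific cadherin found along the whole tubule, averaged 11.38 ± 0.03 in CBDL and 11.50 ± 0.03 in sham kidneys (SD, n = 3 each), with an interval of -0.31 to 0.06. The farthest bound of the intervals for Cdh2 and Cdh16 was -0.35, smaller in size than the increases of Cdh3, Cdh6 and Cdh11. These intervals are not adjusted for multiple tests and do not show that the groups are alike.

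The other cadherins were not called and differed by between -0.29 and 0.33. They were Cdh4, Cdh13 (T-cadherin, which is held by a lipid anchor), Cdh15 (of muscle), Cdh22, Cdh24 and Cdh26 at brighter signals, and Cdh7, Cdh8, Cdh9, Cdh10, Cdh12, Cdh18, Cdh19, Cdh20 and Cdh23 (of the hair cells of the ear) in the dimmest 33.3%. A second row for Cdh4 averaged 5.30 in CBDL and 5.75 in sham kidneys, opposite to the row used, at 0.17. The 14 uncalled claudins differed by between -0.38 and 0.36. Of these Cldn5 (of endothelium), Cldn11 (of myelin and Sertoli cells), Cldn12, Cldn13, Cldn15 (of gut) and Cldn16 were the brighter ones, and Cldn9, Cldn14, Cldn17, Cldn18 (of stomach and lung), Cldn20, Cldn22, Cldn23 and Cldn24 the dim ones. Cldn11 was uneven within CBDL, with 8.01 on CBDL_170 and 6.55 and 6.33 on CBDL_164 and CBDL_165, against 6.77, 6.55 and 6.49 in sham kidneys.

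Of the proteins that complete the tight junction, the scaffold Tjp1 rose, while Ocln and the scaffold Tjp3 were not called. Tjp1 (ZO-1), which ties claudins and occludin to actin, read 10.79, 10.67 and 10.75 in CBDL, against 10.06, 10.04 and 9.98 in sham kidneys. With spreads of 0.06 and 0.04 (SD, n = 3 each) the increase of 0.71 (SE 0.10, adjusted p = 0.000763) was 1.63-fold. Epcam, a membrane glycoprotein of distal epithelia that binds claudins, read 9.46, 9.56 and 9.39 in CBDL, against 8.95, 8.66 and 8.52 in sham kidneys, and rose by 0.76 (SE 0.13, adjusted p = 0.00235). Ocln read 8.97, 9.07 and 8.96 in CBDL and 8.85, 9.07 and 8.83 in sham kidneys, with a difference of 0.08 (95% interval -0.19 to 0.35). Tjp3 (ZO-3) differed by 0.04 (adjusted p = 0.811).

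**Figure D2:**
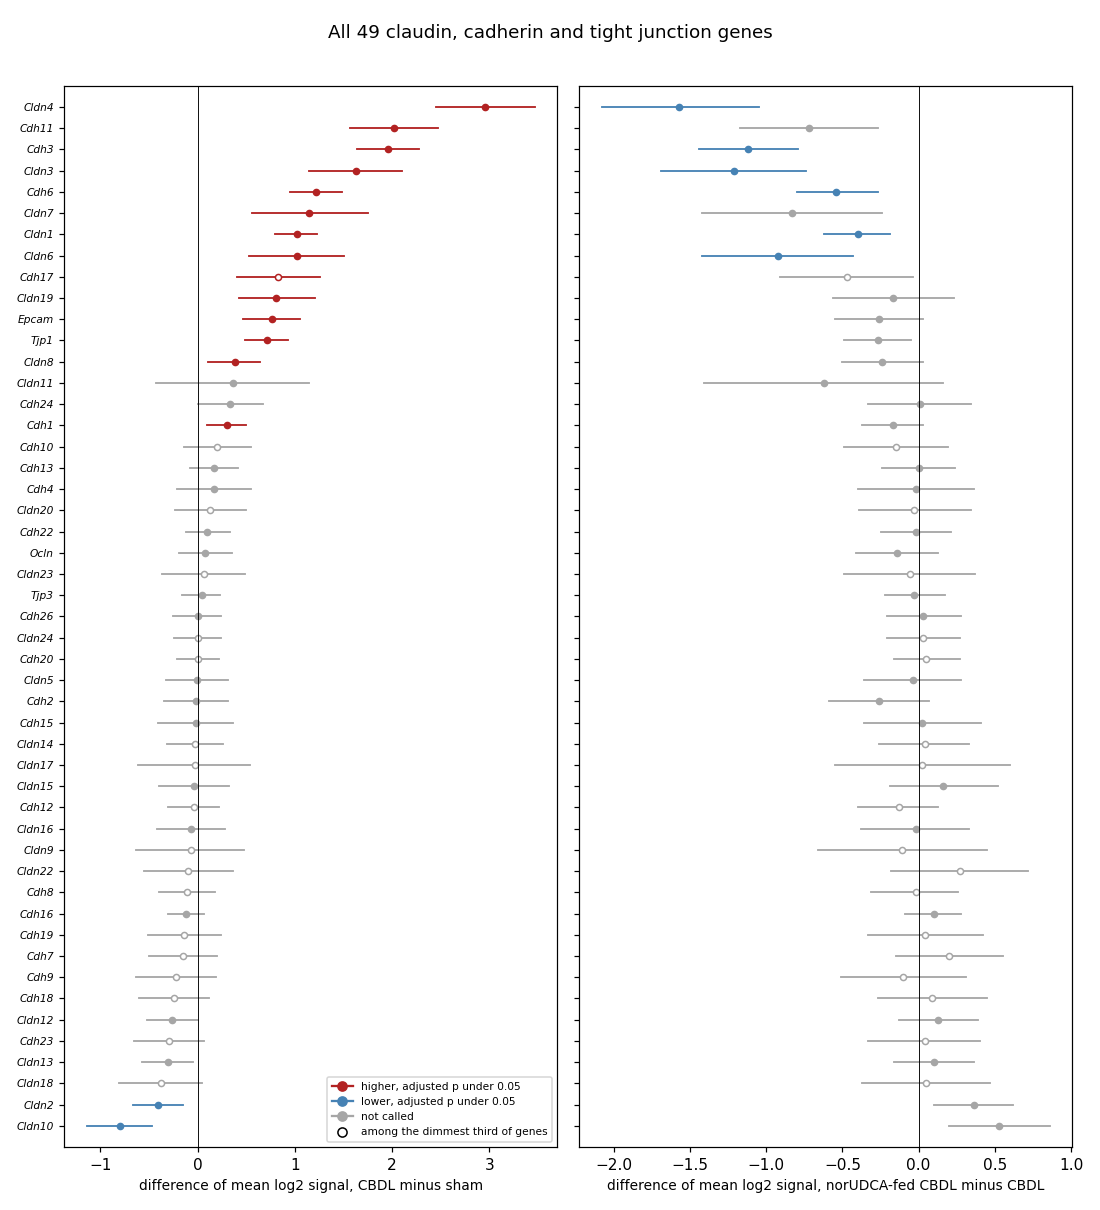
Difference of mean log2 signal with its 95% interval, before adjustment for multiple tests, for each of the 49 genes in CBDL minus sham (left) and norUDCA-fed CBDL minus CBDL (right), both in the order of the left panel. Cldn4 leads both panels in size, at 2.96 and -1.57, and open circles mark genes of the dimmest 33.3%.

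The comparison of norUDCA-fed CBDL with CBDL kidneys asks whether the bile acid changed the picture of ligation. It shares the CBDL arrays with the comparison above, so the values of the 2 comparisons are not independent and are given side by side. Of the 49 genes, 6 were lower and 0 higher, so that 12.2% were lower, beside a background of 3.2% lower and 3.61% higher over all genes (6.8% called). The 6 were Cldn4, Cldn3, Cdh3, Cldn6, Cdh6 and Cldn1. At an unadjusted p under 0.05 there were 12 of the 49 genes in either direction, beside 4275 of all 22180 genes. The median difference was -0.03, beside 0.00 over all genes.

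Cldn4 read 8.86, 8.20 and 8.72 on the norUDCA-fed CBDL arrays, against 9.87, 10.58 and 10.03 on the CBDL arrays. The difference was -1.57 (SE 0.23, adjusted p = 0.00824), which is 0.338 of the CBDL signal. Cldn3 read 8.03, 7.75 and 8.11, against 8.91, 9.74 and 8.88 in CBDL, with a difference of -1.21 (SE 0.21, adjusted p = 0.013). For both neighbours all norUDCA-fed CBDL arrays lay below all CBDL arrays, and the call of Cldn3 ended without norUDCA_175 (adjusted p = 0.0612).

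Cdh3 read 8.68, 8.36 and 8.72 in norUDCA-fed CBDL, against 9.59, 9.94 and 9.57 in CBDL, a difference of -1.12 (SE 0.14, adjusted p = 0.00766). Cdh6 read 8.19, 8.13 and 8.31, against 8.79, 8.89 and 8.56 in CBDL, and differed by -0.54 (SE 0.12, adjusted p = 0.0273). The 2 cadherins thus differed from CBDL by unequal amounts, and for neither did the groups overlap. Cldn6 read 5.69, 5.51 and 5.89, against 6.12, 7.13 and 6.62 in CBDL (-0.92, SE 0.22, adjusted p = 0.0372). Cldn1 read 10.14, 10.14 and 10.28, against 10.60, 10.62 and 10.54 in CBDL, a difference of -0.40 (SE 0.10, adjusted p = 0.038). Calls for Cldn4 and Cdh3 held in each of 17 other settings. Cdh6 lost its call without CBDL_164, CBDL_165 or any norUDCA-fed CBDL array (adjusted p between 0.0598 and 0.106), Cldn1 without these or sham_160 (0.0566 to 0.131), and Cldn6 without sham_158, sham_160, CBDL_165, CBDL_170 or any norUDCA-fed CBDL array (0.057 to 0.142).

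The other genes that ligation changed did not pass in this comparison. Cdh11 read 9.62, 9.57 and 9.98 in norUDCA-fed CBDL, against 10.81, 10.08 and 10.43 in CBDL, without overlap (-0.72, SE 0.20, adjusted p = 0.0643), and it was called without CBDL_165 (adjusted p = 0.044). Cldn7 differed by -0.83 (adjusted p = 0.103, and 0.0168 without CBDL_170), Cdh17 by -0.47 (adjusted p = 0.213) and Tjp1 by -0.27 (adjusted p = 0.159). Cldn19 averaged 10.11 ± 0.15 in norUDCA-fed CBDL and 10.28 ± 0.06 in CBDL (SD, n = 3 each), a difference of -0.17 with a 95% interval of -0.56 to 0.23. Epcam, Cldn8 and Cdh1 differed by -0.26, -0.24 and -0.17.

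Cldn10 and Cldn2 were higher under norUDCA without passing the adjusted threshold. Cldn10 read 9.79, 9.55 and 9.65 in norUDCA-fed CBDL, against 9.32, 9.06 and 9.02 in CBDL (0.53, SE 0.15, adjusted p = 0.0648, and 0.0284 without sham_159). Cldn2 read 6.90, 7.00 and 6.85, against 6.43, 6.59 and 6.64 in CBDL (0.36, SE 0.12, adjusted p = 0.104). Neither gene overlapped between the groups. Over the 49 genes the ranges did not overlap for 3 upward and 12 downward, beside 11.6% and 12.6% of all genes (24.2% in either direction). Of the 12 proximal tubule markers 10 were higher in norUDCA-fed CBDL, beside 3.61% of all genes. The markers had a mean signal of 11.61 to 11.63 in norUDCA-fed CBDL, against 9.98 to 11.04 in CBDL.

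Markers of the connective tissue and of injured tubule moved beside the 6 genes. Over all genes, 3.2% were lower in norUDCA-fed CBDL than in CBDL. Of 10 fibroblast and pericyte markers 5 were lower in norUDCA-fed CBDL than in CBDL, with a mean signal of 8.66 to 8.85, against 9.54 to 9.80. Of 10 markers of parietal epithelium and injured tubule, 6 were lower and 4 were not called. Their mean signal was 8.67 to 8.88, against 9.27 to 9.59 in CBDL and 7.42 to 7.61 in sham kidneys. Of 12 macrophage and myeloid markers, 10 were lower, at 8.02 to 8.08, against 8.65 to 9.44. Of 13 collecting duct markers, 3 were higher and 0 lower (median 0.57), beside 3.61% higher over all genes. Their mean signal was 9.29 to 9.4, against 8.2 to 8.97 in CBDL. The part of these cells in the results on junction genes was not tested.

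The comparison of norUDCA-fed CBDL with sham kidneys asks what remained different after both treatments. It shares arrays with each of the other comparisons. Of the 49 genes, 6 were higher and 0 lower (12.2%, beside 1.82% higher and 1.37% lower over all genes, 3.18% called). Cldn4 was the largest, with 8.86, 8.20 and 8.72 in norUDCA-fed CBDL, against 7.37, 7.35 and 6.88 in sham kidneys, a difference of 1.39 (SE 0.23, adjusted p = 0.0126). Next came Cdh11 at 1.30 (SE 0.20, adjusted p = 0.00976), Cdh3 at 0.84 (SE 0.14, adjusted p = 0.0143), Cdh6 at 0.68 (SE 0.12, adjusted p = 0.0158), Cldn1 at 0.61 (SE 0.10, adjusted p = 0.0109) and Tjp1 at 0.44 (SE 0.10, adjusted p = 0.0452). For each of the 6 the norUDCA-fed CBDL values lay above the sham values on every array. The ranges did not overlap for 11 of the 49 genes upward and 2 downward, beside 8.96% and 13.5% of all genes (22.5% in either direction). Without norUDCA_179 none of the 49 was called by limma (adjusted p of the 6 between 0.0546 and 0.189), and without norUDCA_172 or sham_160 2 were. The differences without norUDCA_179 were 1.33 for Cldn4, 1.17 for Cdh11, 0.77 for Cdh3, 0.63 for Cdh6, 0.57 for Cldn1 and 0.37 for Tjp1. Tjp1 lost its limma call without any 1 of 8 arrays, all but CBDL_165 (adjusted p between 0.0536 and 0.189). With all arrays, 9 of the 49 genes had an unadjusted p under 0.05, beside 3626 of all 22180 genes. Of the markers, 9 of 12 for macrophages and myeloid cells, 5 of 10 for parietal epithelium and injured tubule and 4 of 10 for fibroblasts and pericytes were higher in norUDCA-fed CBDL than in sham kidneys. Their mean signals were 8.02 to 8.08, 8.67 to 8.88 and 8.66 to 8.85 in norUDCA-fed CBDL, against 6.87 to 7.27, 7.42 to 7.61 and 7.70 to 8.22 in sham kidneys. Their part in the 6 differences was not tested.

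Cldn3, Cldn6 and Cldn2 were not called between norUDCA-fed CBDL and sham kidneys. Cldn3 averaged 7.96 ± 0.19 in norUDCA-fed CBDL and 7.55 ± 0.10 in sham kidneys (SD, n = 3 each), a difference of 0.41 with a 95% interval of -0.06 to 0.89, and its ranges did not overlap. Cldn6 averaged 5.70 ± 0.19 and 5.60 ± 0.14 in sham kidneys (SD, n = 3 each), with an interval of -0.40 to 0.59. Cldn2 averaged 6.92 ± 0.08 and 6.96 ± 0.18 in sham kidneys (SD, n = 3 each), with an interval of -0.31 to 0.21. These intervals do not show that the groups are alike. Epcam at 0.50 (adjusted p = 0.0764, and 0.0455 without sham_158), Cldn19 at 0.65 (adjusted p = 0.0875) and Cldn10 at -0.27 (adjusted p = 0.405) did not pass.

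The partners of these proteins were read from 7 lists of junction genes and of factors known to act on them. Of 21 other tight junction genes, 6 rose and 1 fell in CBDL against sham kidneys (median 0.11), beside 10.3% and 11.5% of all genes. Jam2, an adhesion molecule of the immunoglobulin family, rose by 0.95 (SE 0.17, adjusted p = 0.00326), Ybx3, a transcription factor that binds ZO-1, by 0.73 and Lsr (angulin-1), which seals the corners where 3 cells meet, by 0.63. Ildr2, an angulin relative, fell by 0.66 (SE 0.14, adjusted p = 0.00639). With the mean of all rows of a gene, Lsr was at 0.30 (adjusted p = 0.0602) and Ildr2 at -0.34 (adjusted p = 0.0395). Without sham_159 and CBDL_165 neither was called (adjusted p = 0.0784 for Lsr and 0.0521 for Ildr2). In norUDCA-fed CBDL against CBDL, Jam2 was lower, at -0.69 (adjusted p = 0.0426), and Ildr2 higher, at 0.69 (adjusted p = 0.0181). Both calls ended when single arrays were left out, with an adjusted p of up to 0.157 for Jam2 and 0.0749 for Ildr2, and that of Ildr2 also with the mean of its rows (0.38, adjusted p = 0.0564).

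Of 13 adherens junction partners, 6 rose and 1 fell after ligation (median 0.31). Over all genes 10.3% rose and 11.5% fell, a background for each list of this paragraph. Nectin2, an adhesion receptor, rose by 1.09 (SE 0.15, adjusted p = 0.000639), Vcl (vinculin), which takes up tension at the junction, by 0.66 (SE 0.09, adjusted p = 0.000529) and Ctnna1 (alpha-catenin), the link to actin, by 0.62 (SE 0.10, adjusted p = 0.00163). Nectin3 fell by 0.53 (SE 0.11, adjusted p = 0.00859), and Ctnnb1 (beta-catenin), which binds the cadherin tail, differed by 0.16 (adjusted p = 0.331). Of 12 desmosome genes 2 rose, the plaque protein gene Dsp at 1.43 (SE 0.18, adjusted p = 0.000502) and the desmosomal cadherin gene Dsg2 at 1.37 (SE 0.20, adjusted p = 0.00102, but 0.61 with the mean of its rows), while Perp differed by -0.54 (adjusted p = 0.0623) and Dsc2 by 0.39 (adjusted p = 0.118). Of 6 connexins, Gja1 (connexin 43) rose by 1.44 (SE 0.23, adjusted p = 0.00171), and Gjb2 (connexin 26) at -1.41 and Gjb1 (connexin 32) at -0.86 (-0.54 without sham_159 and CBDL_165) fell. Gjb2 and Gjb1 were higher in norUDCA-fed CBDL than in CBDL, by 0.95 (adjusted p = 0.0269) and 0.89 (adjusted p = 0.0205). Both lost that call without any 1 of the norUDCA-fed CBDL arrays, and Gjb2 also without CBDL_164 or CBDL_165 (adjusted p of up to 0.0774 for Gjb1 and 0.112 for Gjb2). Vcl and Nectin2 were lower in that comparison, at -0.36 (adjusted p = 0.0364) and -0.57 (adjusted p = 0.047). The call of Vcl ended in 9 of 17 other settings and that of Nectin2 in 12 (adjusted p of up to 0.112 and 0.16).

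**Figure D3:**
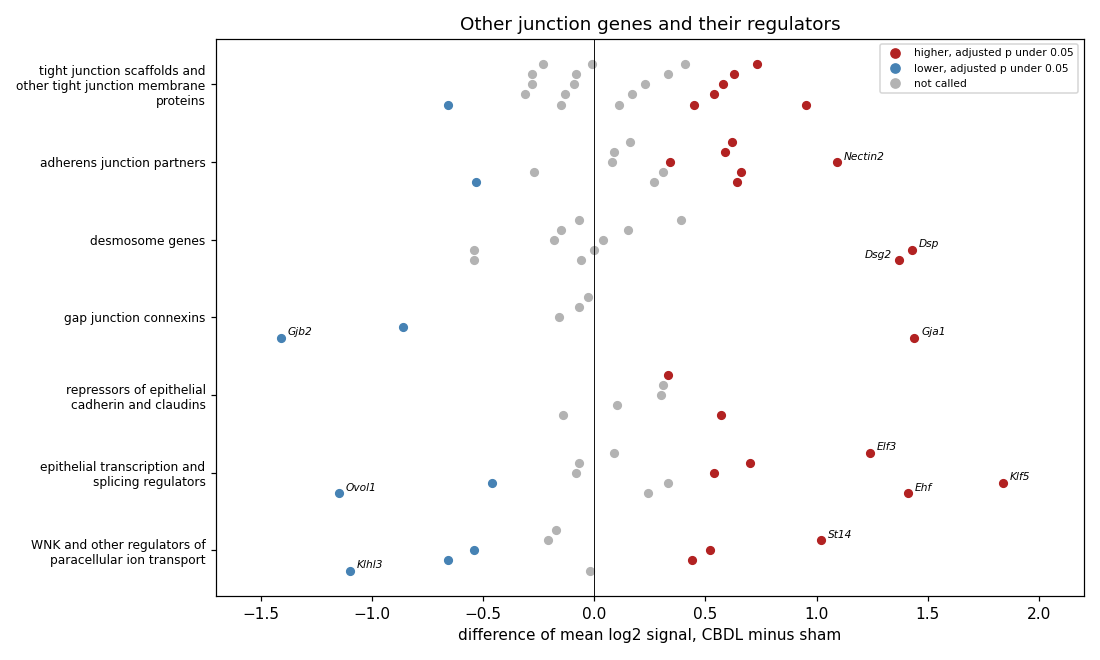
Difference of mean log2 signal in CBDL minus sham kidneys for each measured gene of the 7 lists of other junction genes and regulators, 1 point a gene, with the vertical scatter within a list for legibility only. Named genes differ by more than 1 unit, from Gjb2 at -1.41 to Klf5 at 1.84.

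Of 12 epithelial transcription and splicing regulators, 5 rose and 2 fell in CBDL against sham kidneys (median 0.29), beside 10.3% and 11.5% of all genes. Klf5, a zinc finger factor of the collecting duct, rose by 1.84 (SE 0.14, adjusted p = 4.44e-05), and the ETS factors Ehf by 1.41 (SE 0.18, adjusted p = 0.00041) and Elf3 by 1.24 (SE 0.24, adjusted p = 0.00479). Ovol1, a zinc finger repressor, fell by 1.15 (SE 0.19, adjusted p = 0.00179). Klf5 averaged 7.65 in norUDCA-fed CBDL, 8.51 in CBDL and 6.67 in sham kidneys, and was lower in norUDCA-fed CBDL than in CBDL (-0.86, adjusted p = 0.0115, and 0.0565 without norUDCA_175). Ovol1 was higher in that comparison, by 0.84 (adjusted p = 0.0291), and its call ended in 7 of 17 other settings (adjusted p of up to 0.105).

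Of 6 measured repressors of epithelial cadherin and claudins, 2 rose after ligation, beside 10.3% of all genes. They were Snai2, by 0.57 (SE 0.14, adjusted p = 0.0161), and Tcf4, by 0.33 (SE 0.10, adjusted p = 0.0375). Snai2 lost its call without sham_160 or CBDL_164 (adjusted p = 0.057 and 0.0608), and Tcf4 without any 1 of 8 arrays, all but sham_159 (up to 0.117). Zeb1 differed by 0.30 (adjusted p = 0.0594) and was called without sham_159 (0.0458), with array weights (0.0159) and with the dimmest genes left out (0.0338). Snai1 differed by 0.31 (adjusted p = 0.148) and was called without CBDL_165 (0.0403), without sham_159 and CBDL_165 together (0.0455) and with array weights (0.0365). Of 9 regulators of transport between cells and their proteases, 3 rose and 3 fell, beside 10.3% and 11.5% of all genes. Klhl3, which marks WNK kinases for breakdown, fell by 1.10 (SE 0.13, adjusted p = 0.000314) and the serine protease gene Prss8 by 0.66 (SE 0.14, adjusted p = 0.00655, but 0.0562 without sham_159 and CBDL_165, and a difference of -0.43 with quantile normalization), while the membrane protease gene St14 rose by 1.02 (SE 0.15, adjusted p = 0.000878) and its inhibitor Spint2 by 0.44 (SE 0.10, adjusted p = 0.0124). In norUDCA-fed CBDL against CBDL, Klhl3 was higher, by 0.88 (adjusted p = 0.00828).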

How the data were processed

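The 9 kidney RNA samples were prepared with TRIzol reagent and biotin-labelled (Affymetrix WT PLUS reagents), according to the labels. The values the authors deposited are on a log2 scale, 1 per array row, and RMA and Partek 6.6 are named per the submitters' processing notes. The genome build and filters are not given in the sources used here. Of 41345 rows, 23521 carried 1 gene symbol, 1814 several and 16010 none. Per gene the brightest single-symbol row over the 9 arrays was used, which left 1341 rows out, 4 of them rows of the 49 genes.

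Differences were fitted with limma 3.58.1 in R 4.3.3 on the deposited log2 values, with 1 mean per group, all 9 arrays and no filter (6 residual and 3.77 prior degrees of freedom), and adjusted over 22180 genes. The fit was tested on simulated data. Alternatives were an intensity trend, array weights, only the 6 arrays compared, the dimmest 33.3% left out, quantile normalization, median centring, the mean of a gene's rows, each array left out, and, added after seeing the data, sham_159 and CBDL_165 left out together. Genes and lists were chosen with earlier results of these data known. The 14 and 6 called genes with the lowest p in the first and second comparison were given array by array, Cdh1, Cldn2, Ocln and Tjp1 always, and up to 4 genes of each list with the lowest p. Cdh11 and Cldn10 in the second comparison, Cldn8, Cldn11 and Cldn13 by array, and Ctnnb1, Gjb1 in the second comparison and Umod were named after their values were seen. Whether probes of 1 claudin also read a relative was not tested.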

Additional observations from a re-analysis of the deposited data

How the results depend on the processing

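Of the 16 genes called between CBDL and sham, 12 were called in each of the 17 other settings (Cldn1, Cldn3, Cldn4, Cldn6, Cldn7, Cldn10, Cldn19, Cdh3, Cdh6, Cdh11, Epcam and Tjp1), and of the 6 called between norUDCA-fed CBDL and CBDL, 2 were (Cdh3 and Cldn4). Of the 6 called between norUDCA-fed CBDL and sham, 0 were called in every setting. No value of a named gene changed direction with a call. The count of genes lower in CBDL than in sham was 2 as reported, 1 with only the 6 arrays compared, 4 with arrays centred on their median (Cldn12 and Cldn13 added), which moved the median of all genes from -0.06 to -0.16, and between 1 and 3 without single arrays. The 14 higher genes became 11 to 13 without single arrays. The 6 genes lower in norUDCA-fed CBDL than in CBDL became 3 with only the 6 arrays compared, 5 with median centring, 7 with the intensity trend, array weights or the dimmest genes left out (Cdh11 added), 8 with quantile normalization (Cdh11 and Tjp1 added) and between 2 and 6 without single arrays. None was higher there as reported, against 1 with the intensity trend, without the dimmest 33.3% of genes (Cldn10 in each) and with quantile normalization (Cldn2), 2 with array weights and with median centring (Cldn2 and Cldn10), and 0 to 1 without single arrays. The 6 genes higher in norUDCA-fed CBDL than in sham became 0 to 6 without single arrays. Without sham_159 and CBDL_165 together, 11 rose and 1 fell in CBDL, 3 were lower in norUDCA-fed CBDL than in CBDL and 5 were higher than in sham. The cause of these moves was not tested. No paired analysis was possible because the groups share no replicate numbers. The number of arrays limits precision, and signal over background was not analysed here.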

Other observations

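Deposited values recur exactly between arrays. Of the 49 genes, 23 had at least 1 value shared by 2 or more arrays to the last digit, as did 41.3% of all 41345 rows. Cdh20 read 4.28 on 6 arrays, Tjp3 read 7.43 on 5 and Cdh22 read 5.26 on 5. Among the 16 called genes Cldn1 and Cldn2 held 1 such pair each.

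Markers of urothelium, which lines the renal pelvis and expresses Cldn4 and Cldn3, were uneven within groups. The mean signal of 5 such markers lay between 6.43 and 7.02 in norUDCA-fed CBDL, between 6.63 and 7.71 in CBDL and between 6.08 and 7.21 in sham kidneys. None of the 5 was called by limma in any comparison; at an unadjusted p under 0.05 there were 2 in CBDL against sham (Upk1b and Upk3b), 1 in norUDCA-fed CBDL against CBDL (Upk1b) and 0 in norUDCA-fed CBDL against sham. Their median difference was 0.68 in CBDL against sham and -0.38 in norUDCA-fed CBDL against CBDL. Their part in the results on Cldn4 and Cldn3 was not tested. Upk1a read 7.51, 7.03 and 8.67 in CBDL, against 7.95, 7.06 and 6.16 in sham kidneys. CBDL_170, the array with the most Upk1a, was also the one on which Cldn11 stood at 8.01. On sham_158, at 7.95 for Upk1a, Cldn11 read 6.77, and a link between these genes was not tested.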
